A study of Mus musculus with 17 samples.

Results

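The liver makes most of the proteins of blood complement and of the clotting and fibrinolytic systems, and 41 mouse genes for such proteins were followed here in sorted hepatocytes. They were taken from a list of symbols and matched to the count table by Ensembl identifier. Of the 41 genes, 40 had a row among the 23461 genes of the table, and all 40 passed the filter on low counts. The exception was Klkb1, which encodes plasma prekallikrein, and it is given no value.

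Hepatocytes had been isolated by FACS from male mice aged 2 to 3 months. The groups were Yap/Taz KO with CCl4 (3 samples), Yap/Taz KO untreated (4), wildtype with CCl4 (5) and wildtype untreated (5). CCl4, carbon tetrachloride, is a solvent that hepatocytes turn into a toxic radical. Mice in the CCl4 groups were dosed 7 times at 1 ug/g, with 3 days between doses, and cells were taken 3 days after the end of dosing. Yap and Taz (genes Yap1 and Wwtr1) are transcriptional coactivators that bind DNA through TEAD factors. The labels name no strain, no Cre line or promoter behind the deletion and no sorting gate. They do not say that each sample came from its own animal, so p-values rest on the spread between these samples, which may be technical.

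Complement can be started by antibody (classical pathway), by sugars (lectin pathway) or spontaneously (alternative pathway), and all routes cleave C3 and end in a membrane attack complex that perforates target cells. Clotting runs through a cascade of proteases that ends with thrombin cutting fibrinogen into fibrin, with antithrombin and activated protein C as brakes and plasmin as the enzyme that dissolves the clot. Hepatocytes secrete nearly all of these factors, several of them as acute phase proteins whose synthesis rises under interleukin-6 and interleukin-1.

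Samples had 11266420 to 24775863 counts, with a median of 14786573, and the complement and coagulation genes held 3.51 to 5.47% of them. Levels are given as CPM, counts scaled to a common library size with TMM factors. Mean Yap1 was 1.37 CPM in KO CCl4 and 3.50 in KO untreated samples, against 55.1 in wildtype CCl4 and 51.3 in wildtype untreated samples, and mean Wwtr1 was 4.76 and 1.87 in the KO groups, against 19.6 and 12.8 in the wildtype groups. Mitochondrially encoded genes held 34.3% of counts in KO CCl4 replicate 3 and 30.7% in wildtype untreated replicate 5, against 1.98 to 20.1% in the other libraries. Summed markers of macrophages reached 5650 CPM in KO CCl4 replicate 3, so calls in KO CCl4 samples are also counted without this library.

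Scaled to exon length, the 3 fibrinogen chains and C3 stood above the rest. Mean levels over all 17 libraries were 1728 CPM per kilobase for Fga, 1680 for Fgg, 1639 for C3 and 1225 for Fgb, followed by plasminogen (Plg) at 691. The lowest were the lectin pathway protease Masp1 at 5.20 CPM per kilobase, protein S (Pros1) at 13.4, C2 at 37.3, protein Z (Proz) at 45.8 and factor XI (F11) at 46.5. The order at the top differed between groups: C3 was the highest in both CCl4 groups, at 2051 CPM per kilobase in KO and 1796 in wildtype, whereas the highest untreated levels were those of Fga in KO, at 1968, and Fgg in wildtype, at 1632. This order describes group means and was not tested.

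**Figure D1:**
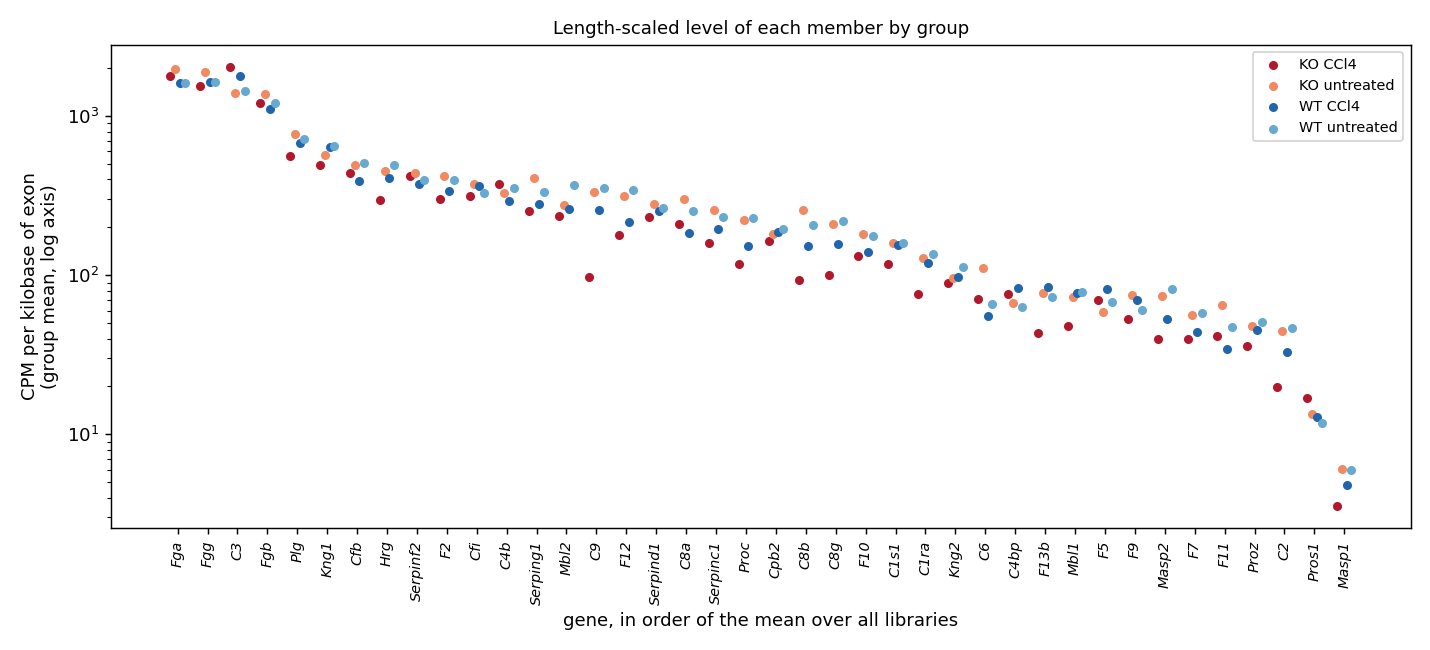
Mean level of each of the 40 genes in each group, in CPM per kilobase of exon on a log axis, with genes in the order of their mean over all libraries. Points of KO CCl4, KO untreated, WT CCl4 and WT untreated run from left to right within a gene; Fga, Fgg, C3 and Fgb stand above the rest and Masp1 is the lowest, and in KO CCl4 the points of C9 and C8b fall well below those of the other groups.

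Yap/Taz KO hepatocytes had lower levels of many complement and clotting factor genes after repeated CCl4 than when untreated, and the terminal complement genes C9 and C8b fell the most. Of the 40 genes, 16 fell and 1, C3, rose, against 6.96% of all 13721 tested genes that fell and 12.1% that rose (edgeR quasi-likelihood test, adjusted p under 0.05 over all tested genes). The median log2 fold change was -0.47 for the 40 genes and 0.01 for all tested genes, and 35 of the 40 had a negative log2 fold change. Genes that passed are written below as having fallen or risen. In whole-sample RNA of this kind, fewer cells of a type and less RNA per cell cannot be told apart.

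The membrane attack complex had the lowest median of the 9 role groups, -1.06, and 3 of its 5 genes fell. C9, whose product polymerises into the pore, had 434, 165 and 147 CPM in KO CCl4 libraries, against 645, 1164, 832 and 752 CPM in KO untreated libraries. All 3 CCl4 libraries were below the lowest untreated library, and replicate 1 was the least reduced. C9 lies at chr15:6445327-6498751 on mm10. It fell by 1.77 ± 0.34 on the log2 scale (SE, adjusted p = 0.00198), to 0.293 of the untreated level.

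C8b, the beta chain of C8, whose binding inserts the complex into the membrane, had 356, 202 and 152 CPM in KO CCl4 and 660, 769, 650 and 560 CPM in KO untreated libraries. The groups did not overlap, and C8b (chr4:104766317-104804548) fell by 1.48 ± 0.25 log2 (adjusted p = 0.000833). C8g, the gamma chain, fell by 1.06 ± 0.27 log2 (adjusted p = 0.0111). The alpha chain gene C8a had 794, 752 and 749 CPM in KO CCl4 against 858 to 1506 CPM in KO untreated libraries, which did not overlap either, but its log2 fold change of -0.51 ± 0.23 did not pass (adjusted p = 0.147). C6, which binds the nascent complex before C8, had a log2 fold change of -0.63 ± 0.31 (adjusted p = 0.18). Per kilobase of exon, the alpha, beta and gamma chains of C8 averaged 210, 92.9 and 101 CPM in KO CCl4 samples, against 300, 259 and 211 CPM in KO untreated samples.

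The start of the classical and lectin pathways also held lower genes, 4 of 8, with a median log2 fold change of -0.69. C2, which supplies the protease of the C3 convertase, had 110, 57.6 and 62.1 CPM in KO CCl4 and 169, 210, 153 and 164 CPM in KO untreated libraries. These groups did not overlap, and C2 fell by 1.18 ± 0.28 log2 (adjusted p = 0.00748). Masp2, the lectin pathway protease that cleaves C4 and C2, fell by 0.90 ± 0.22 log2, and Masp1, which activates it, by 0.76 ± 0.25. C1ra, a protease of the C1 complex, fell by 0.77 ± 0.20 log2. C1ra and Masp1 were the called genes whose groups overlapped: KO CCl4 replicate 1 had 309 CPM of C1ra against a lowest untreated value of 305, and for Masp1 KO CCl4 replicates 1 and 2 had 36.0 and 45.8 CPM, against 34.2 CPM in KO untreated replicate 2. The mannose-binding lectin Mbl1 missed the threshold, with a log2 fold change of -0.61 ± 0.21 and an adjusted p of 0.0502. C4b, the complement C4 gene, had a log2 fold change of 0.19 ± 0.31, Mbl2 of -0.22 ± 0.32 and the C1 protease C1s1 of -0.46 ± 0.28, none of which passed.

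C3 (chr17:57203970-57228136), on which all pathways converge, was the only one of the 40 that rose. It had 8958, 12623 and 10062 CPM in KO CCl4 libraries, against 7199, 6540, 7618 and 7320 CPM in KO untreated libraries. Every CCl4 library was above every untreated one, by 0.56 ± 0.16 log2 in the fit (adjusted p = 0.0251), and the adjusted p was 0.151, with a log2 fold change of 0.40, without KO CCl4 replicate 2. Factor B (Cfb), which forms the alternative pathway convertase with C3, had a log2 fold change of -0.17 ± 0.20 (adjusted p = 0.641). Summed over the 40 genes, KO CCl4 libraries had 42146 to 43689 CPM and KO untreated libraries 44504 to 50667 CPM; leaving C3 out, the sums were 29523 to 34216 and 37305 to 44127 CPM. The order depends on the scaling: as a share of counts outside mitochondrially encoded genes, the 40 genes held 5.31 to 5.71% in KO CCl4 and 4.68 to 5.27% in KO untreated libraries.

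Among the soluble inhibitors of complement, Serping1 fell and the other 2 did not pass. Serping1 encodes the C1 inhibitor, which also restrains the contact system, and had 768, 490 and 511 CPM in KO CCl4 against 875, 812, 1056 and 1048 CPM in KO untreated libraries. The groups did not overlap (log2 -0.69 ± 0.18, adjusted p = 0.0151). Factor I (Cfi), which degrades C3b and C4b, had a log2 fold change of -0.25 ± 0.13, and its cofactor C4bp of 0.20 ± 0.21.

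In the contact system, which starts clotting on charged surfaces and releases bradykinin, both protease genes with values fell and both kininogen genes did not pass. Klkb1, the gene of plasma prekallikrein, also belongs here and had no value. Factor XII (F12) had 376, 363 and 311 CPM in KO CCl4 and 646, 827, 498 and 510 CPM in KO untreated libraries, with no overlap. F12 fell by 0.83 ± 0.20 log2 (adjusted p = 0.00706). Factor XI (F11), the next protease, fell by 0.65 ± 0.22 log2. The log2 fold changes of Kng1 and Kng2, the sources of bradykinin, were -0.21 ± 0.13 and -0.10 ± 0.18.

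Of the vitamin K dependent proteases, factor VII (F7), which starts clotting together with tissue factor, had 71.9, 70.0 and 80.8 CPM in KO CCl4 against 96.2, 105, 103 and 112 CPM in KO untreated libraries. All CCl4 values were below all untreated values, and F7 fell by 0.49 ± 0.16 log2 (adjusted p = 0.0368). Prothrombin (F2) fell by 0.48 ± 0.15 log2. Factors IX (F9) and X (F10), which act between them, had log2 fold changes of similar size, -0.50 ± 0.20 and -0.45 ± 0.17, with adjusted p values of 0.0927 and 0.0766. The cofactor gene F5 had 638 and 661 CPM in KO CCl4 replicates 1 and 2 and 253 CPM in replicate 3, against 381 to 472 CPM in KO untreated libraries. Its log2 fold change was 0.24 ± 0.26 with replicate 3 and 0.57 ± 0.19 without it, with adjusted p values of 0.609 and 0.0639.

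None of the 3 genes of fibrinogen, the substrate of thrombin, passed, while F13b fell. Fga had 5430, 4921 and 5773 CPM in KO CCl4 and 4899 to 6853 CPM in KO untreated libraries, which overlapped. The log2 fold changes of Fga, Fgb and Fgg were -0.14 ± 0.22, -0.20 ± 0.22 and -0.30 ± 0.24, with approximate 95% intervals of -0.57 to 0.29, -0.62 to 0.23 and -0.76 to 0.16. F13b, which encodes the carrier subunit of the fibrin-crosslinking factor XIII, had 117, 136 and 74.5 CPM in KO CCl4 against 187, 207, 205 and 181 CPM in KO untreated libraries. No value overlapped, and F13b (chr1:139501702-139523752) fell by 0.84 ± 0.19 log2 (adjusted p = 0.00523).

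The anticoagulants protein C and antithrombin fell. Proc, the gene of protein C, which when activated cleaves factors V and VIII, had 329, 228 and 324 CPM in KO CCl4 and 527, 564, 527 and 584 CPM in KO untreated libraries. Its groups stood well apart (log2 -0.91 ± 0.18, adjusted p = 0.00263). Serpinc1, the gene of antithrombin, which blocks thrombin and factor X, had 1595, 1333 and 1184 CPM in KO CCl4 and 2102, 2330, 2239 and 2184 CPM in KO untreated libraries. It fell by 0.69 ± 0.16 log2 (adjusted p = 0.0064), again without overlap. Protein Z (Proz) and heparin cofactor II (Serpind1) had log2 fold changes of -0.40 ± 0.18 and -0.26 ± 0.17 and did not pass. Pros1, the gene of protein S, the cofactor of protein C, had a positive log2 fold change, 0.33 ± 0.23 (adjusted p = 0.362).

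On the fibrinolytic side, Hrg was the 1 gene of 4 that fell. Hrg encodes histidine-rich glycoprotein, which binds plasminogen and heparin, and had 660, 521 and 588 CPM in KO CCl4 against 773, 1164, 821 and 854 CPM in KO untreated libraries (log2 -0.61 ± 0.18, adjusted p = 0.0206). The groups did not overlap. Plasminogen (Plg) had a log2 fold change of -0.45 ± 0.17 (adjusted p = 0.073). The genes of its brakes, antiplasmin (Serpinf2) and the carboxypeptidase Cpb2, which trims fibrin, had log2 fold changes of -0.06 ± 0.15 and -0.15 ± 0.16.

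**Figure D2:**
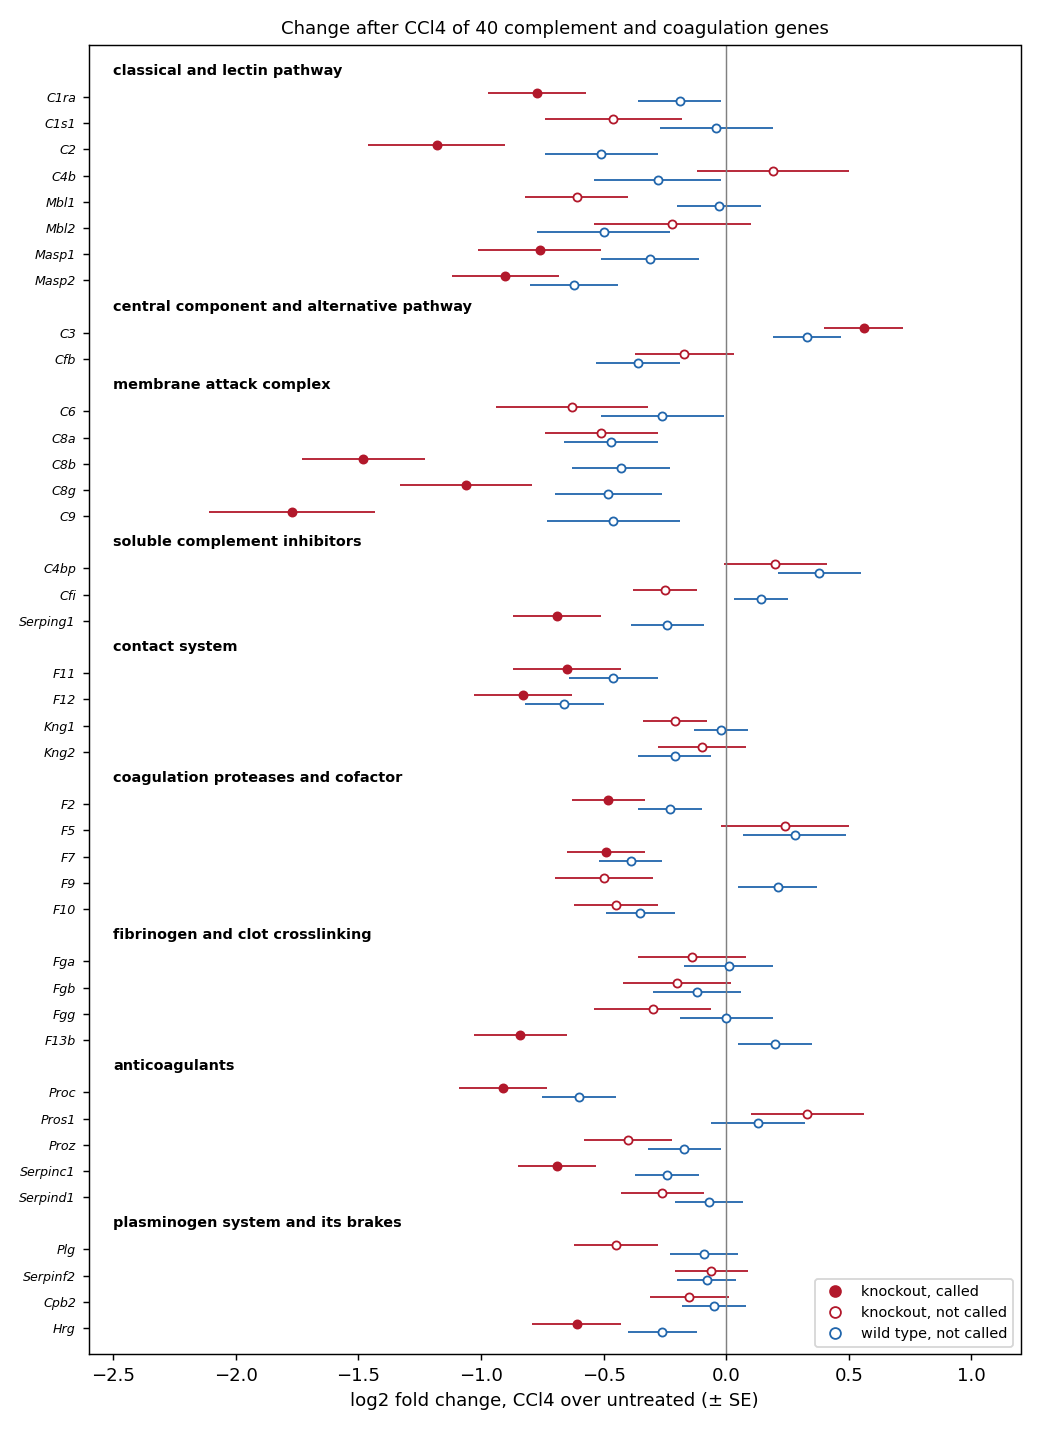
Log2 fold change of CCl4 over untreated for the 40 genes, by role, in knockout (upper, red) and wild type (lower, blue) hepatocytes; whiskers are standard errors, filled points passed an adjusted p under 0.05. In the knockout C9, C8b, C2 and C8g lie furthest to the left and C3 is the 1 filled point to the right of 0; no wild type point is filled.

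The calls rested to different degrees on single libraries. C8b, C9 and Proc passed under all 29 alternative analyses, with log2 fold changes of -1.91 to -1.22, -2.45 to -1.50 and -1.01 to -0.75. Without KO CCl4 replicate 3, 9 genes passed: C2, C8b, C8g, C9, F12, F13b, Proc and Serpinc1 fell and C3 rose. The other 8 (C1ra, Masp1, Masp2, Serping1, F11, F2, F7 and Hrg) then had log2 fold changes of -0.79 to -0.44 and adjusted p values of 0.0512 to 0.176. Without KO CCl4 replicate 2, 8 passed. Scaled by library totals alone, 6 passed (5 lower, 1 higher), and with only the 2 KO groups in the fit 4 passed, all lower. Calls over all genes numbered 1273 in that 2-group fit and 1666 without KO CCl4 replicate 3, against 2610 in the main fit. F11, F2 and F7 were lost under 18, 17 and 14 of the 29 alternatives.

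**Figure D3:**
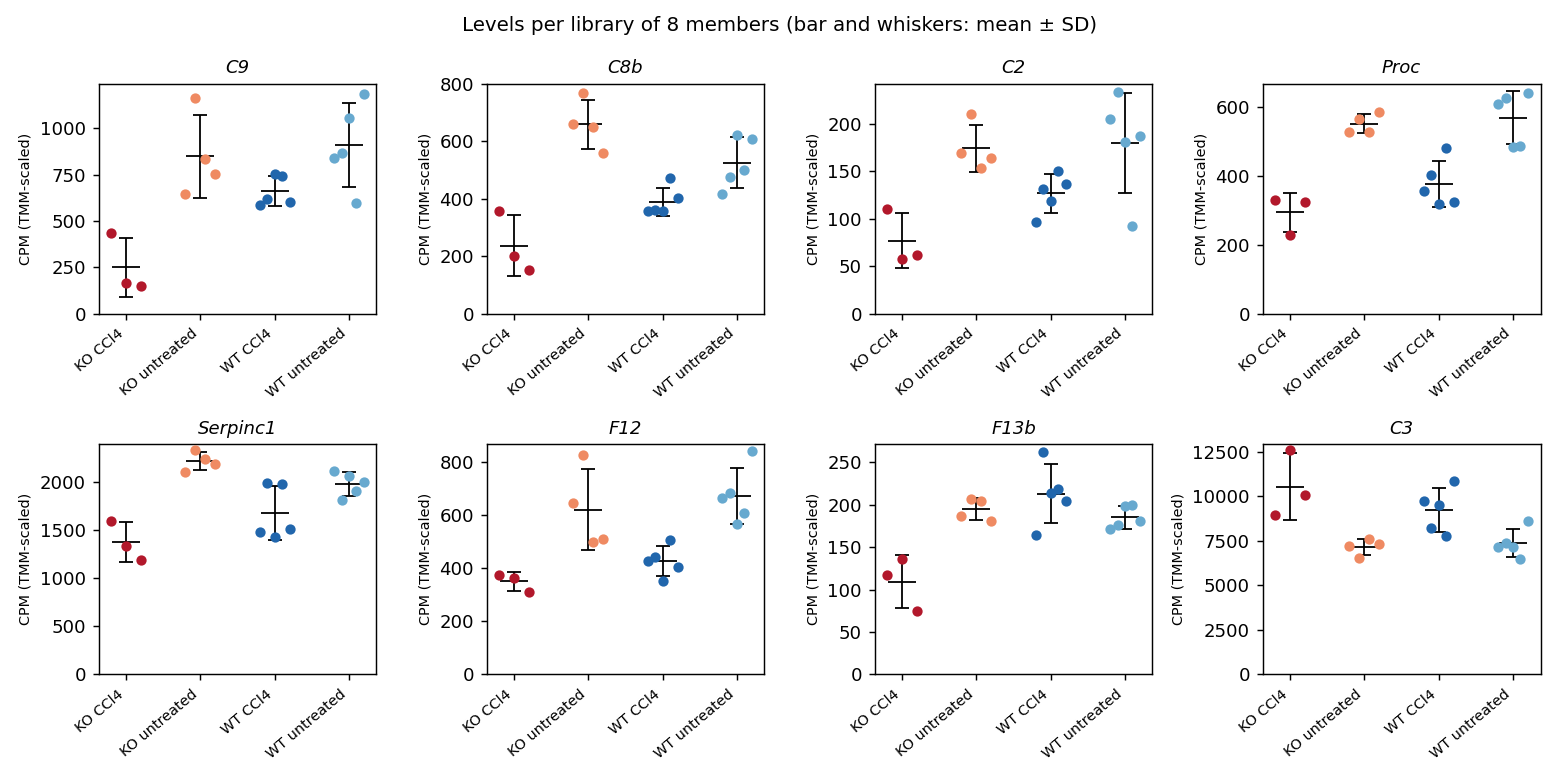
Level of 8 genes in each of the 17 libraries, in TMM-scaled CPM on axes that start at 0, with mean and SD per group. C9, C8b, C2, Proc, Serpinc1, F12 and F13b have all 3 KO CCl4 points below all 4 KO untreated points, and C3 has them above; in wild type the CCl4 and untreated points of F12 and Proc are separate and those of the other genes overlap.

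Markers of other liver cells differed between the same groups, where 12.1% of all tested genes rose and 6.96% fell. Of 17 macrophage markers 17 rose in KO CCl4 samples, and they summed to 171, 406 and 5650 CPM, against 29.3 to 68.9 CPM in KO untreated, 54.9 to 150 CPM in wildtype CCl4 and 23.6 to 77.3 CPM in wildtype untreated libraries. Of 14 endothelial markers 13 rose, with sums of 131 to 1138 CPM in KO CCl4, against 27.7 to 46.8, 47.9 to 230 and 12.2 to 55.7 CPM in KO untreated, wildtype CCl4 and wildtype untreated libraries. Of 12 tested stellate cell and fibroblast markers 11 rose, with sums of 100 to 328 CPM, against 8.57 to 11.9, 19.0 to 96.6 and 5.59 to 28.8 CPM. None of these markers was at 0 in any KO CCl4 library. Their part in the changes of the complement and coagulation genes was not tested. Without replicate 3, the library with the highest sums of all 3 lists, 9 of the 17 called genes passed. The other KO CCl4 libraries, with macrophage sums of 171 and 406 CPM, were also above every KO untreated library. Of 12 hepatocyte markers 3 fell (Pck1, Cps1 and Apoa1) and none rose, with a median log2 fold change of -0.43, close to that of the 40 genes; their sums were 108101 to 143142 CPM in KO CCl4 and 99215 to 147860 CPM in KO untreated libraries. Of 3 tested cholangiocyte markers and 1 neutrophil marker none passed, no lymphocyte marker was tested, and of 2 platelet and erythroid markers 1 fell, Alas2.

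**Figure D4:**
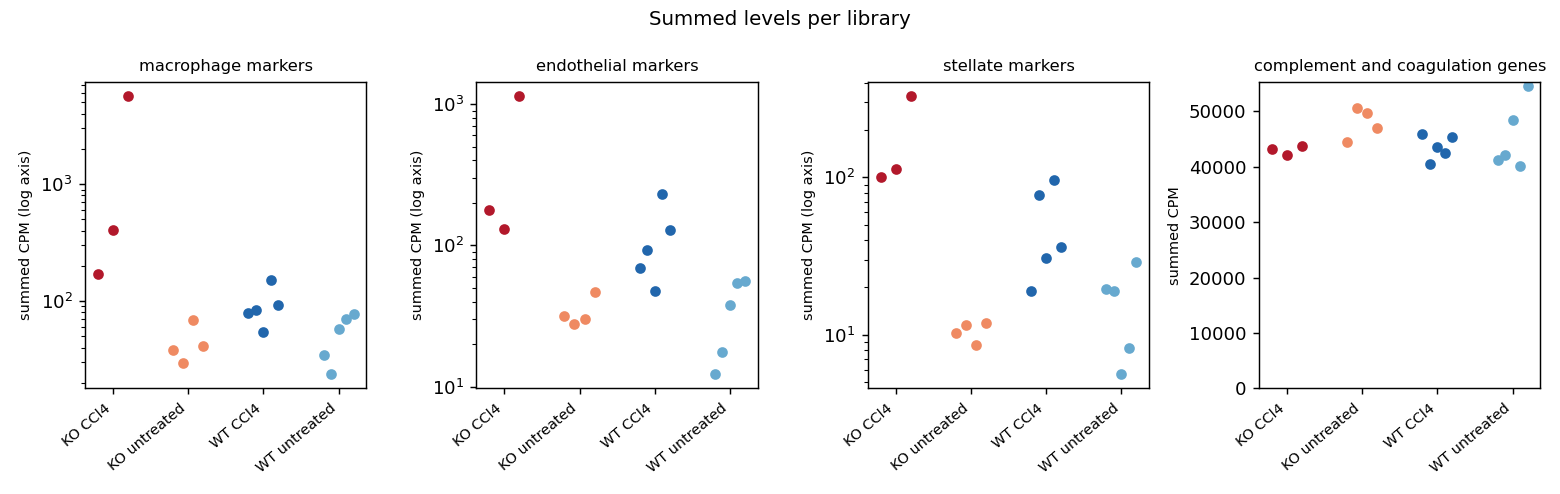
Summed CPM per library of macrophage, endothelial and stellate markers (log axes) and of the 40 complement and coagulation genes (linear axis from 0), by group. KO CCl4 libraries hold the highest macrophage sums, 171 to 5650 CPM, whereas the sums of the 40 genes lie between 40175 and 54520 CPM in all groups.

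The sequences around the start sites of 5 genes are given for reference, since they stand for the different outcomes: C9, C8b and F13b, which fell, C3, which rose, and Fgb, a fibrinogen gene that did not pass. Each runs from 250 bases before to 50 bases after the RefSeq start (GRCm38.p6, the mm10 build), 5′ to 3′ on the strand of the gene. They lie at chr15:6445096-6445395 (+), chr4:104766067-104766366 (+), chr1:139501457-139501756 (+), chr17:57228087-57228386 (-) and chr3:83049814-83050113 (-). Capitals mark matches, on either strand, to the motifs GTTAAT (core of HNF1), CAAAGTCCA (HNF4), TTGCNNAA (C/EBP), TTCNNNGAA (STAT) and GGAATG (TEAD).
C9: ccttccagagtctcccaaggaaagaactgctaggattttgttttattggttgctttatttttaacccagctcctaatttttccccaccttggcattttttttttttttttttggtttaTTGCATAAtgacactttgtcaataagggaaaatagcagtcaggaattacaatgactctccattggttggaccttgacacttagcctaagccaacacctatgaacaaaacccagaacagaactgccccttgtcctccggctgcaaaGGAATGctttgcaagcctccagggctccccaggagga
C8b: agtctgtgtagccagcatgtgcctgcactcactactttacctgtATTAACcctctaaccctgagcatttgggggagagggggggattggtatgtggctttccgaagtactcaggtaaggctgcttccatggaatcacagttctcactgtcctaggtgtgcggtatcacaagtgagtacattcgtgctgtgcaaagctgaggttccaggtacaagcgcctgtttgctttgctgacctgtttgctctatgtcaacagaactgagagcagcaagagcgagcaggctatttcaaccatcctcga
F13b: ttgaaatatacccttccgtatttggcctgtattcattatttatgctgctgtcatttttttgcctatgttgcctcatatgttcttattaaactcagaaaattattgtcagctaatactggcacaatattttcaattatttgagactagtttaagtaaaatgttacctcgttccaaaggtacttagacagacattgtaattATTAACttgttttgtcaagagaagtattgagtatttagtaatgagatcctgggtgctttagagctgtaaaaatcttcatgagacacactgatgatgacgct
C3: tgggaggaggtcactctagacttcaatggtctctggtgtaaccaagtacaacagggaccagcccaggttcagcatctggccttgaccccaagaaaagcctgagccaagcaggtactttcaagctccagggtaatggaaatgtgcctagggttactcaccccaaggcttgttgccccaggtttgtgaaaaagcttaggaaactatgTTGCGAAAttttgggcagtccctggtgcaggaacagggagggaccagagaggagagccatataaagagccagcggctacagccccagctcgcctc
Fgb: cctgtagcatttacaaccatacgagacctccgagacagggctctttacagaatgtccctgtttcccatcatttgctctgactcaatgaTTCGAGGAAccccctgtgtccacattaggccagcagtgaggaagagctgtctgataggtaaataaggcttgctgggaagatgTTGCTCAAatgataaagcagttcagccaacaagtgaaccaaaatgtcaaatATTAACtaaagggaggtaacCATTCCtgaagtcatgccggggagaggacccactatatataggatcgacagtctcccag

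With the start base counted as 1 and no base counted as 0, the C9 window held a C/EBP match that began at -132 and a TEAD match at 14. C8b and F13b each held 1 HNF1 match, at -206 and -51, and C3 held a C/EBP match at -45. Fgb held matches to 4 of the 5 motifs, at -162 (STAT), -80 (C/EBP), -29 (HNF1) and -9 (TEAD), and no printed match overlapped another. Of the 41 genes, 32 had a promoter in the RefSeq table; the others were C2, C4b, Masp1, Cfb, Cfi, Serping1, Kng1, Proc and Plg. Matches to C/EBP, HNF1, STAT and TEAD were present in 40.6, 28.1, 21.9 and 28.1% of these 32, against 10.8, 7.20, 8.47 and 14.6% of all 27025 promoters of the same length; HNF4 matched in 0% and 0.477%. Of the 13 genes called after CCl4 in KO that had a promoter, 6 held C/EBP, 4 HNF1, 2 STAT and 2 TEAD matches. Among the 18 others with values, 6, 5, 5 and 7 did, in the same order. A match describes these letters and is not a measured site.

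Several of the genes are neighbours on mm10, and neighbours did not always have similar values. C2 and Cfb on chromosome 17 lie 85 bases apart, and their log2 fold changes in KO after CCl4 were -1.18 and -0.17. C8b and C8a on chromosome 4, 11.1 kb apart, had -1.48 and -0.51, and Hrg and Kng2 on chromosome 16, 24.2 kb apart, had -0.61 and -0.10. F7, F10 and Proz on chromosome 8 had -0.49, -0.45 and -0.40. The 3 fibrinogen genes on chromosome 3 had -0.30 (Fgg), -0.14 (Fga) and -0.20 (Fgb). The strand setting of the authors' counting is not given in the sources used here, so reads at the border of C2 and Cfb could be shared; likewise C4b, C1ra, C1s1 and Kng1 have close copies (C4a, C1rb, C1s2 and Kng2) between which reads could be split.

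In wildtype hepatocytes, repeated CCl4 gave log2 fold changes that were mostly negative but passed for none of the 40 genes. With 0 called in either direction, against 0.576% of all tested genes that rose and 0.277% that fell, 13 of the 40 were at an unadjusted p under 0.05, as were 2023 of all 13721 tested genes. DESeq2 called 3, all lower (F12, Proc and Masp2), limma voom 0, and limma voom with sample weights 4, which were these 3 and F7. The median log2 fold change of the 40 was -0.22, and all tested genes had -0.01. Scaled by library totals alone, those medians were 0.18 and 0.38, so the sign of the median of the 40 depends on the scaling, while it lies below that of all genes under both.

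F12 and Proc came closest, and were the genes whose wildtype groups did not overlap. F12 had 427, 442, 352, 505 and 405 CPM in wildtype CCl4 against 666, 684, 565, 608 and 840 CPM in wildtype untreated libraries (log2 -0.66 ± 0.16, adjusted p = 0.0673). Proc had 356, 403, 317, 479 and 323 CPM in wildtype CCl4 against 608, 624, 484, 485 and 641 CPM in wildtype untreated libraries (log2 -0.60 ± 0.15, adjusted p = 0.0774). Without KO untreated replicate 2 F12 passed (adjusted p = 0.0361), and without wildtype CCl4 replicate 4 Proc did (adjusted p = 0.0436). The membrane attack genes had log2 fold changes between -0.48 and -0.26: C9 had 588, 617, 752, 743 and 603 CPM with CCl4 against 840, 869, 1058, 595 and 1186 CPM untreated, and these overlapped. C3 had 7766 to 10873 CPM with CCl4 and 6468 to 8620 CPM untreated (log2 0.33 ± 0.14, adjusted p = 0.274). The log2 fold changes of Fga, Fgb and Fgg were 0.01, -0.12 and 0.00.

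**Figure D5:**
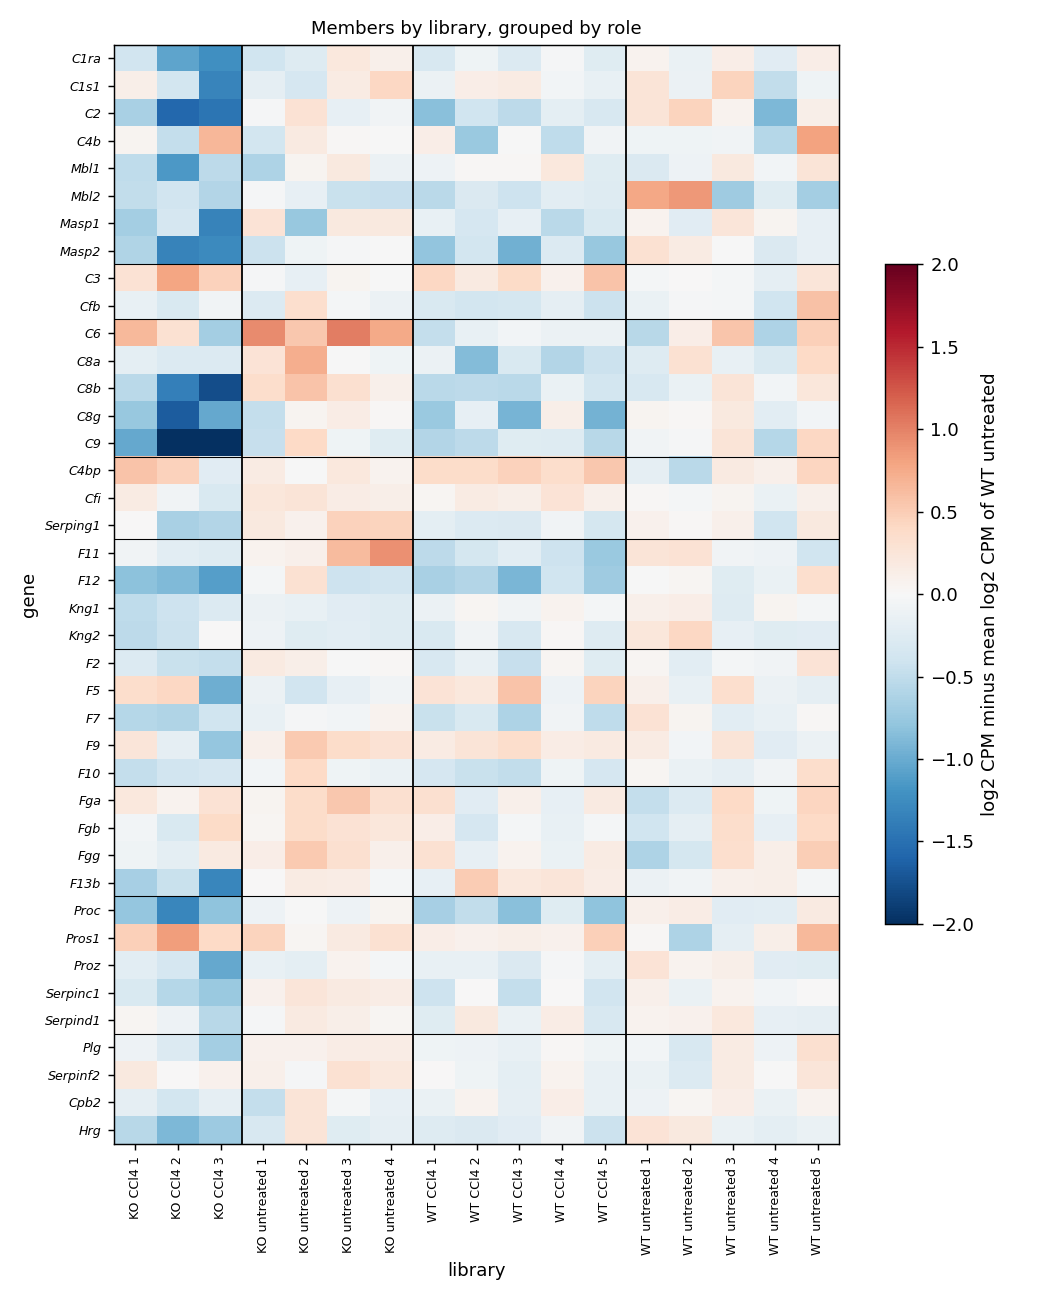
Log2 CPM of each gene in each library minus its mean log2 CPM in WT untreated libraries, with genes grouped by role (lines between groups) and libraries by group. C9 and C8b are bluest in KO CCl4 replicates 2 and 3 (165 and 147 CPM of C9) and paler in replicate 1 (434 CPM), and C3 is red in all 3 of these libraries.

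Set directly against each other, KO CCl4 samples had lower levels of 4 genes than wildtype CCl4 samples and higher levels of none, against 4.21% of all tested genes that were lower and 7.62% that were higher. The KO CCl4 libraries here are the same as in the comparison with KO untreated samples. F13b had 117, 136 and 74.5 CPM in KO CCl4 against 165, 262, 214, 219 and 205 CPM in wildtype CCl4 libraries, without overlap. It was lower by a log2 fold change of -0.97 ± 0.18 (adjusted p = 0.00341) and passed under all 29 alternatives.

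C9 had 434, 165 and 147 CPM in KO CCl4 against 588 to 752 CPM in wildtype CCl4 libraries (log2 -1.41 ± 0.33, adjusted p = 0.0107). C1ra had 309, 195 and 173 CPM in KO CCl4 against 324 to 395 CPM in wildtype CCl4 libraries (log2 -0.65 ± 0.19, adjusted p = 0.0399). Mbl1, a lectin that recognises microbial sugars, had 85.3, 54.7 and 84.8 CPM in KO CCl4 against 103 to 141 CPM in wildtype CCl4 libraries (log2 -0.69 ± 0.20, adjusted p = 0.0359). In each of the 3 genes every KO CCl4 library lay below every wildtype CCl4 library. Without KO CCl4 replicate 2 or replicate 3, 1 gene passed, F13b; without replicate 1, 8 passed, and without wildtype CCl4 replicate 1, 2, 3 or 4, 2 passed. Without KO CCl4 replicate 3 C9 had a log2 fold change of -1.14 (adjusted p = 0.0836), C1ra of -0.49 and Mbl1 of -0.79. The other 36 genes did not pass, and the median of the 40 was -0.20 against 0.04 for all tested genes. Between these groups 17 of 17 macrophage, 5 of 14 endothelial and 1 of 12 stellate markers were higher in KO and 2 of 12 hepatocyte markers (Cps1 and Cyp2e1) were lower, and their part in the differences was not tested.

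Whether the response to CCl4 differed between genotypes was tested by the difference of the 2 log2 fold changes. It passed for F13b, against 0.299% of all tested genes with a lower and 0.794% with a higher difference; 8 of the 40, and 2343 of all 13721 tested genes, were at an unadjusted p under 0.05. F13b had a log2 fold change of -0.84 in KO and 0.20 in wildtype, a difference of -1.04 ± 0.24 (adjusted p = 0.0493). This call was lost under 23 of 28 alternatives, with adjusted p values up to 0.148, and 5 genes passed without KO CCl4 replicate 1. For C9 the difference was -1.31 ± 0.42 (adjusted p = 0.119) and for C8b -1.05 ± 0.31 (adjusted p = 0.0936), so a difference in response between genotypes was not established for these genes, which passed in KO and not in wildtype. For F9 it was -0.71 ± 0.26 (adjusted p = 0.157), with 194, 145 and 96.3 CPM in KO CCl4 against 175 to 236 CPM in KO untreated, and 181 to 210 CPM in wildtype CCl4 against 140 to 195 CPM in wildtype untreated libraries.

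Between untreated KO and wildtype hepatocytes none of the 40 genes passed. Of all tested genes 0.583% were higher and 0.350% lower in KO. By edgeR 2 of the 40, and 1203 of all 13721 tested genes, were at an unadjusted p under 0.05, and DESeq2 and limma voom, with or without sample weights, called 0. The 2 were C6, with 428, 321, 449 and 375 CPM in KO untreated against 151, 242, 327, 145 and 308 CPM in wildtype untreated libraries (log2 0.75 ± 0.27, adjusted p = 0.311), and F11, with 110, 112, 161 and 196 CPM against 79.5 to 128 CPM (log2 0.45 ± 0.19, adjusted p = 0.439). Both overlapped between groups. Cfi did not overlap, at 794 to 873 CPM in KO and 666 to 783 CPM in wildtype, with a log2 fold change of 0.19 ± 0.12 (adjusted p = 0.751). The median of the 40 was 0.02.

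Complement genes outside the list were also followed, 36 of them, of which 27 were tested. Of the 27, 15 rose and 4 fell in KO after CCl4, against 12.1% and 6.96% of all tested genes. The C1q chains, made mainly by macrophages, had the smallest adjusted p values among the genes that rose: C1qc had 9.15, 22.3 and 388 CPM in KO CCl4 against 0 to 0.503 CPM in KO untreated libraries (log2 8.72 ± 1.29), and C1qb and C1qa had log2 fold changes of 8.72 and 8.67. All 3 are also on the macrophage list. Susd4, a membrane regulator of complement, had 2.99, 2.25 and 1.42 CPM in KO CCl4 against 20.4, 13.6, 15.5 and 12.1 CPM in KO untreated libraries, and fell by 2.78 ± 0.41 log2 (adjusted p = 0.00046). It also fell after CCl4 in wildtype, by 2.53 ± 0.32, the 1 of 27 to pass there. Of all tested genes 0.277% fell and 0.576% rose in wildtype.

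Hc, the gene of complement C5, which joins C3 to the membrane attack complex, was lower in untreated KO than in untreated wildtype samples. It had 342, 367, 303 and 349 CPM in KO untreated against 1111, 1295, 1249, 868 and 1648 CPM in wildtype untreated libraries, far apart, with a log2 fold change of -1.86 ± 0.20 (adjusted p = 4.21e-05). Hc was the 1 of these 27 genes to pass in that comparison, where 0.583% of all tested genes were higher and 0.35% lower in KO. The labels name no strain, and whether genetic background differed between the genotypes was not tested. After CCl4 Hc had 687, 410 and 554 CPM in KO and 1073, 808, 1153, 847 and 942 CPM in wildtype, again without overlap (log2 -0.81 ± 0.21, adjusted p = 0.0189). Within KO, every CCl4 library thus had more Hc than every untreated library, unlike C9 and C8b, while the wildtype groups overlapped. Of the 27 genes 12 were higher and 3 lower in KO than in wildtype after CCl4, against 7.62% and 4.21% of all tested genes. C1qc, C1qb, C3ar1 and Itgam had the smallest adjusted p, at log2 fold changes of 5.62, 5.78, 5.82 and 5.95. The difference of responses passed for 2, Itgam (8.69) and C5ar1 (6.01), receptors of myeloid cells. Of all tested genes 0.794% had a higher and 0.299% a lower difference. Both calls were lost when KO untreated replicate 1 or 4, wildtype CCl4 replicate 4 or 5 or wildtype untreated replicate 4 was left out. In each of these cases 0 of all tested genes passed.

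Of 27 other coagulation and fibrinolysis genes, 10 rose and 3 fell in KO after CCl4, against 12.1% and 6.96% of all tested genes. Anxa2, a cell surface receptor for plasminogen and its activator, had 38.7, 109 and 71.8 CPM in KO CCl4 against 0.0856 to 0.67 CPM in KO untreated libraries (log2 7.55 ± 0.68, adjusted p = 1.24e-05). It rose in wildtype too, with 5.36 to 12.3 CPM after CCl4 against 0.188 to 1.88 CPM untreated (log2 3.53 ± 0.53, adjusted p = 0.00412). Anxa2 was the 1 of 27 to pass there, against 0.576% of all tested genes that rose and 0.277% that fell. The difference of these responses was 4.02 ± 0.84 (adjusted p = 0.0431), where 0.794% of all tested genes had a higher difference. That call was lost without any 1 of the same 5 libraries. The urokinase receptor Plaur, thrombomodulin (Thbd) and urokinase (Plau) rose by 6.24, 6.23 and 7.18 log2 in KO, where no untreated library had more than 0.275 CPM of any of them. In KO against wildtype after CCl4, 9 were higher and 1 lower, against 7.62% and 4.21% of all tested genes. Among the higher were Anxa2, Plau and Plaur, at log2 fold changes of 3.14, 5.02 and 3.93. None of the 27 passed between the untreated groups, where 0.583% of all tested genes were higher and 0.35% lower in KO.

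Genes that process or control the clotting factors were counted beside all tested genes, of which 6.96% fell and 12.1% rose in KO after CCl4. Of 9 genes of the vitamin K cycle and of clotting factor secretion, 2 fell and 1 rose in KO after CCl4. Vkorc1, which recycles vitamin K for the carboxylation of factors such as prothrombin, had 63.1, 45.7 and 70.3 CPM in KO CCl4 against 116, 159, 109 and 110 CPM in KO untreated libraries (log2 -1.05 ± 0.21, adjusted p = 0.00271). Tpst1, a tyrosine sulfotransferase, fell by 1.28 ± 0.17 log2, and Asph, which hydroxylates aspartate in such factors, rose by 1.19 ± 0.33 with groups that overlapped. Vkorc1 is also counted among the 27 coagulation genes. Of 26 liver transcription factors and genes of interleukin-6 signalling 2 fell, Cebpa and the growth hormone receptor Ghr, a share near that of all tested genes that fell. Cebpa, a factor of the C/EBP family, had 246, 145 and 196 CPM in KO CCl4 against 553, 558, 239 and 398 CPM in KO untreated libraries, which overlapped (log2 -1.16 ± 0.28, adjusted p = 0.00874). Ghr was the 1 of the 26 that was lower in KO than in wildtype after CCl4, by a log2 fold change of -1.05 ± 0.27. Of all tested genes 4.21% were lower in that comparison, a similar share. None of either list passed after CCl4 in wildtype, against 0.576% of all tested genes that rose and 0.277% that fell. Between the untreated groups none passed either, against 0.583% of all tested genes higher and 0.35% lower in KO.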

How the data were processed

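RNA of 17 samples of sorted hepatocytes was sequenced. The authors deposited counts per gene, whole numbers that are not normalized; the submitters' processing notes name STAR 2.4.1d and the mm10 build. The counting tool, its strand setting and the annotation were not given in the sources used here. Counts were analysed with edgeR 4.0.16 in R 4.3.3: filterByExpr (minimum count 10, total 15) kept 13721 genes, libraries were scaled by TMM, and 1 robust quasi-likelihood fit with a mean per group gave 5 contrasts, with Benjamini-Hochberg adjustment over all tested genes. Each SE is |log2 fold change| divided by √F, and intervals are 1.96 SE. CPM uses TMM-scaled sizes; lengths are unions of GENCODE vM21 exons. In every replicate pair the chi-square per gene was at least 23.4. The 41 genes and the other lists were chosen with earlier results of these data known. Named in each comparison were all called members, per-library values for up to 6 of them and at least 1 per role, the 5 highest and lowest levels, and up to 4 called genes of the 2 companion lists; 1 gene that this rule names is not reported here, and other named genes were chosen after their values were seen. Alternatives were other scalings and filters, DESeq2 1.42.0, limma 3.58.1 voom, the 2 groups alone, a replicate block, and leaving out libraries or mitochondrial genes. The fit was tested on simulated data. Replicate numbers do not pair samples, per the labels. Intervals are approximate and belong to the log2 fold change between group means, with an SE that rests on the spread between samples.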

Additional observations from a re-analysis of the deposited data

Results flagged for a closer look

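Single libraries stood apart from the rest of their group for 5 of the 40 genes. Dixon's test at 95% was applied to 120 groups of 4 or 5 libraries, 5 were marked, and chance alone marks about 1 in 20. Wildtype untreated replicate 5, the library with 30.7% mitochondrial counts, had 3331 CPM of C4b, against 1290 to 1813 CPM in the other 4. KO untreated replicate 2 had 34.2 CPM of Masp1, against 66.5 to 69.6 CPM in the other 3, and it also had 630 CPM of F10, against 439 to 461 CPM. Without that library Masp1 fell by 0.95 log2 in KO after CCl4 (adjusted p = 0.00738). Wildtype CCl4 replicate 1 had 160 CPM of C6, against 200 to 213 CPM in the other 4, and wildtype CCl4 replicate 5 had 64.2 CPM of Pros1, against 49.1 to 50.6 CPM.

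The tested difference between genotypes in the response of F13b to CCl4 was -1.04 log2 (KO minus wildtype, adjusted p = 0.0493). Without KO CCl4 replicate 3 it was -0.83 (adjusted p = 0.11), and the call was lost under 23 of 28 alternatives.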

How the results depend on the processing

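Members called in KO after CCl4 numbered 17, and 6 with library totals alone, 4 with only the 2 groups compared (1273 of all genes, against 2610), 8 without both libraries of highest mitochondrial share, and 8 to 17 with 1 library left out (1666 to 3079 of all genes; 8 without KO CCl4 replicate 2, 9 without replicate 3). In wildtype after CCl4, against 0 members and 117 genes, there were 1 member (C3, higher) and 651 genes with library totals alone, which raised the median of all genes to 0.38, 3 and 494 with DESeq2, 4 and 435 with weighted voom, 1 with only the 2 groups, 187 genes without both libraries of highest mitochondrial share, and 0 to 1 members and 63 to 179 genes with 1 library left out. Between untreated groups, against 128 genes, DESeq2 called 328 and weighted voom 214, and 89 to 152 were called with 1 library left out. For KO against wildtype after CCl4, against 4 members and 1622 genes, there were 7 members with DESeq2, 2 and 1031 genes with weighted voom, 2 with only the 2 groups, 1 and 555 without both libraries, and 1 to 8 and 418 to 2216 with 1 library left out. For the difference of responses, against 1 member and 150 genes, there were 0 members with RLE, library totals (28 genes), no filter (33), the CPM filter (88), voom (9), weighted voom (2) and without both libraries (9), 3 members and 783 genes with DESeq2, and 0 to 5 and 0 to 867 with 1 library left out (0 genes without KO untreated replicate 1 or 4, wildtype CCl4 replicate 4 or 5, or wildtype untreated replicate 4, and 867 without KO CCl4 replicate 1).

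With replicate number as a block, 12 members were called in KO after CCl4 (2027 genes), 0 in wildtype (49 genes), 0 between untreated groups (86), 2 between CCl4 groups (867) and 0 for the difference (3 genes); the labels state that these numbers do not pair samples. Under it C3 (0.52, adjusted p = 0.0682), Masp1, F11, F2 and F7 in KO after CCl4, C1ra (-0.64, 0.12) and Mbl1 (-0.66, 0.0887) between CCl4 groups, and the F13b difference (-1.03, 0.148) did not pass.

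With library totals alone the share of called genes that were higher was 83.6% (63.4% with TMM) in KO after CCl4, 94.8% (67.5%) in wildtype after CCl4, 74.2% (62.5%) between untreated groups and 60.7% (72.7%) for the difference of responses. No called member changed sign under any of the 29 alternatives. Among uncalled ones, library totals alone gave positive values in KO after CCl4 for Cfb (0.02), Kng2 (0.05), Fga (0.04), Serpinf2 (0.13) and Cpb2 (0.05), and in wildtype for C1ra (0.21), Mbl1 (0.37), Masp1 (0.07), Cfb (0.07), Serping1 (0.16), F2 (0.17), F7 (0.01), F10 (0.06), Serpinc1 (0.15) and Hrg (0.13). C4b in KO was -0.02 with weighted voom, -0.15 without both libraries and -0.15 to 0.42 with 1 library left out. Mbl1 in wildtype was 0.00 without a filter, 0.04 without both libraries and -0.09 to 0.04 with 1 left out. The cause of these shifts was not tested.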
